A study of Mus musculus with 104 samples.

Results

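The Astn2 break cluster was taken as all translocation junctions whose prey end mapped to chr4:64500001-66500000 in mouse build mm9, with each read counted a single time per table. It held 611 junctions of 2018285 in the whole series, and all 611 were among the 530589 junctions that lay off the bait chromosome or more than 5 Mb from the bait's own break. The window had been chosen by its junction share, which was high in neural progenitor cells given aphidicolin, so that share and the differences between conditions that involve neural progenitor cells are read here as descriptions. Of 8 exact tests that share a multiple-testing adjustment, 2 compare APH with DMSO in these cells, in strand and in position, and their p-values are not read; adjusted values over the other 6 are given where they differ. The samples were neural progenitor cells (NPC) induced in culture from embryonic stem cells under aphidicolin (APH), the same NPC under the solvent DMSO, embryonic stem cells (ESC) under APH, and ESC under DMSO. All cells, the DMSO samples included, were Xrcc4-/- p53-/- and came from lines 1 and 2 on a background labelled C57BL/6/129SVE or C57BL6/129SVE. For each cell type, line and treatment a break was made in turn on chromosome 7, 12 or 15, which gave 24 pools, 6 per condition, built from 104 labelled experiments with 4 to 8 a pool. In the NPC line 2 bait 12 APH table, all 10907 rows of experiment B list reads of experiment A again, so that pool rests on 3 experiments. For ESC line 1 bait 7 APH, 3719 and 3983 of the 13957 rows of experiment C list reads of experiments A and D again. The labels do not say whether lines are single clones or experiments separate cultures, so p-values measure the spread between pools. The files hold DNA junctions only, so the cell types could not be checked against expressed markers.

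Astn2 encodes astrotactin 2, a membrane protein of neurons that governs how much astrotactin 1 reaches the cell surface during the migration of young neurons along glial fibres. It is a very long gene, and long genes expressed in neural progenitors are known places where DNA breaks recur when replication is slowed. Aphidicolin slows replication by inhibiting the replicative DNA polymerases. In the assay, high-throughput genome-wide translocation sequencing by linear amplification-mediated PCR, a bait end cut at a known place is amplified outward, and each read crosses into the prey, the DNA that the bait end was joined to. Xrcc4 is a core factor of classical end joining; cells without it join ends by alternative routes, often at short stretches of bases that both ends share. Loss of p53 lets cells with unrepaired breaks survive. In the RefSeq gene order of GRCm38.p6, Astn2 lies on the minus strand between Pappa and Tlr4, with Trim32 inside it; as the junctions are in mm9, no gene end, exon or intron was placed within the window.

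The joins themselves show what is counted. Each line below is read from the bait outward, 5′ to 3′, with 25 bait bases, then in capitals the bases at the join, then 30 prey bases of chromosome 4. In the 6 lines that follow, the capitals are 2 bases that bait and prey both could have supplied, the commonest overlap. They are the NPC line 1 APH reads with a 2-base overlap that lie nearest the window midpoint, on the left with minus-strand prey and on the right with plus-strand prey.
Bait 7, left at position 65467656: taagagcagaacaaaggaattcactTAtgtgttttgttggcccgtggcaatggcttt
Bait 7, right at position 65516730: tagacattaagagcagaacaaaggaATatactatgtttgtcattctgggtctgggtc
Bait 12, left at position 65462386: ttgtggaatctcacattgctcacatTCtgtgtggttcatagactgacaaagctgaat
Bait 12, right at position 65524492: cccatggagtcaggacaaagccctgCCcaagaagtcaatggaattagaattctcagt
Bait 15, left at position 65479872: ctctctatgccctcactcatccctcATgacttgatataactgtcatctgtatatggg
Bait 15, right at position 65500742: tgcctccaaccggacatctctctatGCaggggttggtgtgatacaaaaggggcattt

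The bait sequences end at different bases in each pair, and every prey stretch is a different piece of the window. A minus-strand prey means that the joined DNA runs from the junction to lower coordinates, and a plus-strand prey that it runs to higher coordinates. The next line shows a join with 12 inserted bases, in capitals, at position 65268135 with minus-strand prey. It is shown because it was listed in the most pools, 3 of bait 15, among window junctions with 10 or more inserted bases. Of the lines above, the bait 15 joins at 65479872 and 65500742 were also listed in more than 1 pool, 3 and 2.
Bait 15, join with 12 inserted bases: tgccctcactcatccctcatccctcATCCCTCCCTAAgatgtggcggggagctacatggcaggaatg

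All 4 reads of this join carried the same bait bases, insert and prey bases. They were labelled NPC line 1 APH experiment D (1 read), NPC line 1 DMSO experiment A (1 read) and NPC line 2 APH (2 reads). The same held for many other junctions, and it touches each NPC result that uses bait 15. Junctions were called identical when bait end, prey position, prey strand and the number of shared or inserted bases were all equal. Of the 56811 distinct junctions off chromosome 15 in the NPC line 2 bait 15 APH pool, 34859 were also listed in the line 1 APH pool and 8010 in the line 1 DMSO pool. Of the 50115 in the NPC line 2 bait 15 DMSO pool, 24103 were also listed in the line 1 APH pool and 12977 in the line 1 DMSO pool.

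The overlap followed single experiments and crossed the treatment labels. The line 2 DMSO experiment A shared 10514 of its 13972 junctions with the line 1 APH experiment A, and the line 2 DMSO experiment D shared 13425 of 18737 with the line 1 APH experiment C. The line 2 DMSO experiments B and C shared 5532 of 8200 and 7317 of 9495 with the line 1 DMSO experiments B and C. No other pairing of a line 2 DMSO experiment with a line 1 experiment passed 0.951%. Among 2074 ordered pairs of experiments with the same bait in different pools and without NPC line 2 bait 15, the median overlap was 0.0943%, 12 pairs passed 10%, and the highest was 43.5%, between NPC line 1 bait 12 APH experiment C and NPC line 2 bait 12 APH experiment D. The line 1 bait 15 DMSO experiments A and D in turn shared 3787 of 5933 and 4186 of 6297 junctions with the line 2 APH pool, so the line 1 pools hold libraries whose labels conflict too. NPC results are therefore given with and without line 2 bait 15, and the APH minus DMSO share also without bait 15 in either line. The labels that are right for the shared libraries cannot be told from these files.

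**Figure D1:**
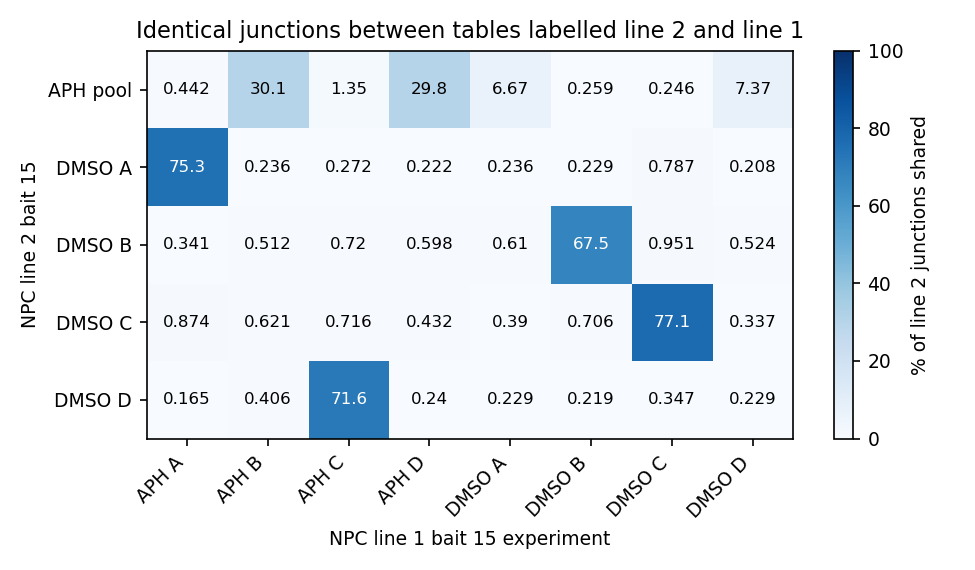
Percent of the distinct junctions of each NPC line 2 bait 15 table part (rows) that were also listed in each NPC line 1 bait 15 experiment (columns). Each line 2 DMSO experiment has 1 dark cell, and for experiments A and D that cell lies under a line 1 APH label.

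Within the window, the overlap was also large. Of the 99 window junctions of the NPC line 2 bait 15 APH pool, 82 were also in the line 1 APH pool. Of the 75 of the line 2 bait 15 DMSO pool, 44 were also in the line 1 APH pool and 6 in the line 1 DMSO pool. Split by experiment, the line 2 DMSO experiments A and D, which matched line 1 APH experiments, had 27 and 37 window junctions, or 0.166% and 0.168% of their junctions beyond 5 Mb. The line 2 DMSO experiments B and C, which matched line 1 DMSO experiments, had 6 and 5, or 0.0641% and 0.0460%. The line 1 APH experiments A and C held 0.173% and 0.153%. The line 1 DMSO experiments A and D, which matched the line 2 APH pool, had 4 and 0 window junctions, or 0.0599% and 0%, where a count of 0 allows a share of up to 0.0422%. The first pair of line 2 DMSO experiments stood at the level of the line 1 APH experiments. As most of their junctions are the same as in line 1 APH experiments A and C, this match is not a separate observation. The pair also stood above the other NPC DMSO experiments of either line with bait 15, the highest of which was 0.0641%. With bait 12, NPC DMSO experiment B reached 0.152% in line 1 and 0.167% in line 2, on 8 and 6 junctions. Over the whole series the window's 611 rows were 446 distinct junctions, of which 134 appeared in more than 1 pool.

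Junctions in the window made up the largest share in NPC under APH. In line 1 the NPC APH pools held 42 junctions with bait 7 (0.134% of those beyond 5 Mb), 71 with bait 12 (0.153%) and 151 with bait 15 (0.171%). In line 2 they held 33 with bait 7 (0.151%), 30 with bait 12 (0.184%) and 99 with bait 15 (0.148%). The 6 pools lay close together whichever chromosome carried the bait, and the lowest of them stood above the highest pool of any other condition. The window was chosen by this share, and how many other windows separate in this way was not counted. Single lettered experiments overlapped. They ran from 0.0859% to 0.311% in NPC under APH, and reached 0.168% in NPC under DMSO and 0.246% in ESC under APH. The last value rests on 1 window junction.

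The NPC DMSO pools held fewer. In line 1 they had 12 junctions with bait 7 (0.0825%), 19 with bait 12 (0.0800%) and 14 with bait 15 (0.0386%). In line 2 they had 13 with bait 7 (0.0613%), 7 with bait 12 (0.0559%) and 75 with bait 15 (0.128%). The pool that stood apart was the one labelled line 2 bait 15 DMSO, which holds the libraries described above.

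Averaged over pools, the window share was 0.157% ± 0.0177 in NPC under APH and 0.0744% ± 0.0309 in NPC under DMSO (SD, n = 6 each). Without line 2 bait 15 it was 0.159% ± 0.0192 in NPC under APH and 0.0637% ± 0.0181 in NPC under DMSO (SD, n = 5 each). The ratio of the means was 2.11 with all pairs and 2.49 without line 2 bait 15. With bait 15 left out of both lines it was 2.22 over 4 pairs. Within pairs, the share was higher under APH in 6 of 6, from 1.16 times in line 2 bait 15 to 4.42 times in line 1 bait 15, and both of these pairs hold libraries with conflicting labels. In the other 4 pairs it ran from 1.62 to 3.29 times.

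The ESC pools were low under both treatments. Under APH, line 1 ESC had 3, 4 and 10 window junctions with baits 7, 12 and 15, and line 2 ESC had 1, 6 and 3. Under DMSO, line 1 ESC had 5, 1 and 4 with the same baits, and line 2 ESC had 3, 1 and 4. The ESC APH shares ran from 0.0117% to 0.0966% and the ESC DMSO shares from 0.00773% to 0.106%, so the treatments overlapped fully. The mean was 0.0515% ± 0.0283 in ESC under APH and 0.0507% ± 0.0348 in ESC under DMSO (SD, n = 6 each).

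The ESC share was tested, as the choice of the window did not use it. The difference, APH minus DMSO, was 0.000813 percentage points with SD 0.0487 over 6 pairs, and 3 of 6 pairs were higher under APH (exact two-sided sign-flip test over line and bait pairs, p = 0.938, adjusted p = 1 over 8 tests). At this depth a change in ESC could only have been seen if it was large: the ESC APH pools held 27 window junctions among 50400 and the ESC DMSO pools 18 among 42106, and the exact 95% intervals of these pooled shares were 0.0353% to 0.0779% and 0.0253% to 0.0676%. With so few junctions, 12 of 28 lettered ESC APH experiments and 9 of 16 lettered ESC DMSO experiments listed no window junction. Intervals cover counting error only, as reads of amplified DNA are not independent molecules. Of the 4 ESC DMSO junctions of line 2 bait 15, 2 were identical to junctions of NPC pools. The 1 ESC DMSO junction of line 1 bait 12 was identical to a junction of NPC line 1 bait 12 DMSO. Between the ESC treatments, 1 window junction of line 1 bait 15 was listed under both APH and DMSO, as was 1 of line 1 bait 7.

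**Figure D2:**
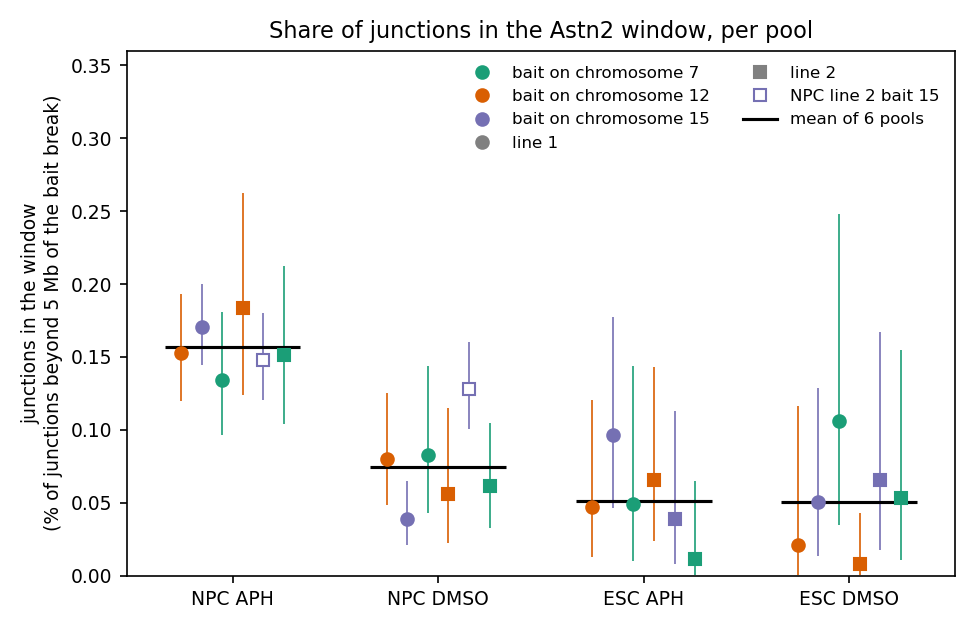
Window junctions as a percent of all junctions beyond 5 Mb of the bait break in each of the 24 pools, with exact 95% counting intervals as thin bars and the mean of the 6 pools of a condition as a black line. The NPC APH pools, between 0.134% and 0.184%, lie above all other pools, and the open square at 0.128% is the pool labelled NPC line 2 bait 15 DMSO.

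In order of level, NPC under APH came highest, then NPC under DMSO, then ESC under APH and ESC under DMSO. The NPC APH level exceeded the ESC APH level in 6 of 6 pairs, with a ratio of means of 3.05, or 2.93 without line 2 bait 15. The NPC DMSO level exceeded the ESC DMSO level in 4 of 6 pairs, with a ratio of means of 1.47 that was 1.34 without line 2 bait 15. NPC under DMSO and ESC under APH overlapped within their spread, as did the ESC treatments. By pool share, only NPC under APH stood clear of the rest. Its counting intervals and its single experiments overlapped those of other conditions.

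Counted in 500 kb bins across the genome, 1 of the window's 4 bins, the bin from 65 to 65.5 Mb, passed the count filter. The filter used the NPC and ESC pools together. The bin held 235 junctions in NPC under APH and 57 in NPC under DMSO. In ESC it held 7 under APH and 10 under DMSO, so few that only a large change in ESC could have been seen. There the log2 fold change of APH over DMSO in ESC was -0.69 ± 0.78 (SE), with an adjusted p of 0.849 over 882 bins by the quasi-likelihood test of edgeR, and DESeq2 did not call it either. Among these 882 bins, 20 were called higher with APH in ESC, or 2.27%, so 0 of 1 in the window is too few to read against that background. In NPC the same bin had a log2 fold change of 1.68 ± 0.36 with all pools and of 2.22 ± 0.40 without line 2 bait 15 (SE). The NPC background was 8.05% of bins called higher and 0.34% called lower with APH with all pools, and 11.9% and 0.373% without line 2 bait 15. As the bin was chosen for this contrast, no call is made for it. The difference between the NPC and ESC effects was 2.37 ± 0.88 on the log2 scale (SE), given as a description.

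The window held more junctions per Mb than its surroundings in NPC under APH, and about as many in ESC. Per Mb, the window held 0.0784% of junctions in NPC under APH, against 0.0223% ± 0.00507 in the 4 Mb on each side of it (SD, n = 6). In NPC under DMSO it held 0.0372% per Mb, against 0.0242% ± 0.00875 in the flanks. In NPC under APH without line 2 bait 15 the values were 0.0793% in the window and 0.0229% ± 0.00543 in the flanks. In NPC under DMSO without that pair they were 0.0318% and 0.0248% ± 0.00962 (SD, n = 5), a gap smaller than the spread of the flanks, and in line 1 bait 15 the window, at 0.0193%, lay below its flanks, at 0.0228%. In ESC under APH the values were 0.0257% in the window and 0.0244% ± 0.00815 in the flanks, and in ESC under DMSO 0.0253% in the window and 0.0257% ± 0.00813 in the flanks. The flanks alone were therefore at about the same level in all 4 conditions.

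The junctions formed a broad mound and not a point. In NPC under APH without line 2 bait 15, the central 50% of 327 junctions lay between 65.240 and 65.599 Mb, with the median at 65.416 Mb. Over all 6 pools and 426 junctions the bounds were 65.240 and 65.594 Mb and the median 65.405 Mb. They fell into 275 separate 1 kb stretches, and the fullest stretch held 4 of them. The densest 100 kb were those from 65.5 to 65.6 Mb with 48 junctions, from 65.3 to 65.4 Mb with 45 and from 65.4 to 65.5 Mb with 43. The outermost 100 kb at the left and right ends held 5 and 3.

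In NPC under DMSO without line 2 bait 15 the 65 junctions were spread over the window, with no 100 kb stretch above 6. The central 50% lay between 64.950 and 66.024 Mb. The inner 1 Mb, from 65 to 66 Mb, held 276 of 327 junctions (84.4%) in NPC under APH and 29 of 65 (44.6%) in NPC under DMSO, in each case without line 2 bait 15. In the pool labelled line 2 bait 15 DMSO it held 81.3% of 75. Per pool, the inner 1 Mb held between 72.7% and 96.7% of window junctions in NPC under APH. Without line 2 bait 15 it held between 28.6% and 53.9% in NPC under DMSO, in pools of 7 to 19 window junctions. These ranges did not overlap, but the line 2 bait 15 DMSO pool, at 81.3%, lay within the APH range. As the window was chosen by its share in NPC under APH, this is a description. Other windows were not compared with it in this respect.

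The middle of the distribution did not move in a single direction. The median position in NPC under APH minus that in NPC under DMSO was 21.0 kb with SD 271 kb over 6 pairs, with 4 pairs to the right and 2 to the left. It was 24.8 kb with SD 302 kb over the 5 pairs without line 2 bait 15. Between pairs it ran from -332 kb in line 2 bait 12 to 377 kb in line 1 bait 12, and the DMSO medians rested on as few as 7 junctions.

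The prey strand differed between the sides of the window in NPC under APH. On the left side of the midpoint, at 65.5 Mb, most prey were on the minus strand, and on the right side most were on the plus strand, so the joined DNA ran outward from the middle of the mound on both sides. In line 1 the plus-strand share in NPC under APH was 30.4% on the left and 68.4% on the right with bait 7, 39.4% and 55.3% with bait 12, and 26.5% and 61.2% with bait 15. In line 2 it was 40.9% on the left and 72.7% on the right with bait 7, 22.2% and 75% with bait 12, and 23.3% and 61.5% with bait 15. The right side was higher in all 6 pools.

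Left minus right, the difference was -35.2 ± 11.9 percentage points (SD, n = 6). The exact two-sided sign-flip test gave p = 0.0313, the smallest that 6 pools allow (adjusted p = 0.125 over 8 tests and 0.188 over 6). The plus-strand share was lower on the left in 6 of 6 pools, and the difference did not pass after adjustment. Without line 2 bait 15 the difference was -34.6 ± 13.2 (SD, n = 5), lower on the left in 5 of 5. The same exact test then gave p = 0.0625, the smallest that 5 pools allow. Over junctions found in 1 pool only the difference was -33.8. As background, 32 of 901 windows of 2 Mb off the bait chromosomes with at least 100 NPC APH junctions, or 3.55%, were lower on the left in all 6 pools, and 2.33% were higher there in all 6. In 5 of 5 pools without line 2 bait 15, 4.98% of 703 windows were lower on the left and 3.56% higher. The pooled difference of -34.2 points in the Astn2 window was the second lowest of the 901, whose median was 0.403. It was -32.5 points without line 2 bait 15, the third lowest of 703. The Astn2 window was number 43 of the 901 by junction count, and its split lay near the median of its junctions, at 65.405 Mb. Whether the splits of the other windows lay near the middle of a cluster was not examined. The ranks may therefore compare unlike windows and are a description.

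**Figure D3:**
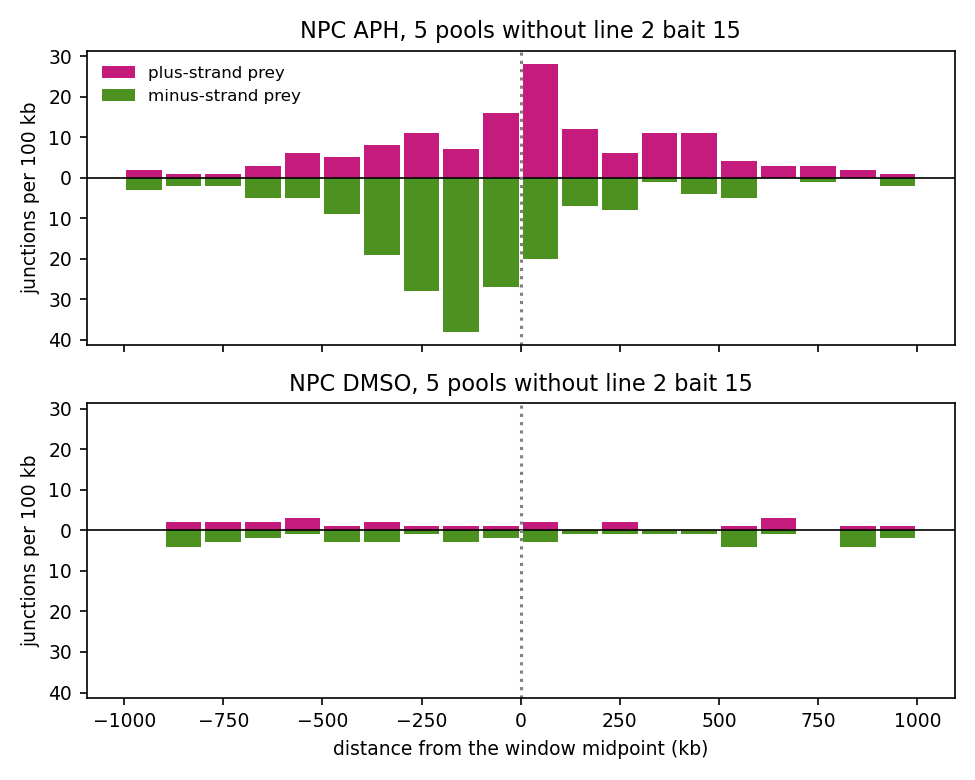
Junctions per 100 kb by distance from the window midpoint in NPC under APH (top) and NPC under DMSO (bottom), over the 5 pools without line 2 bait 15, with plus-strand prey drawn upward and minus-strand prey downward. Under APH, minus-strand prey peak at 38 junctions 150 kb left of the midpoint and plus-strand prey at 28 junctions 50 kb right of it, while under DMSO no bar passes 4.

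The turn from minus to plus lay near the peak. From 65.3 to 65.4 Mb, 7 of 45 NPC APH junctions without line 2 bait 15 were on the plus strand. From 65.4 to 65.5 Mb it was 16 of 43, from 65.5 to 65.6 Mb 28 of 48, and from 65.8 to 65.9 Mb 11 of 12. The turn was not even along the window. On the left, 6 of 11 were plus from 64.9 to 65 Mb. On the right, 6 of 14 were plus from 65.7 to 65.8 Mb, 4 of 9 from 66 to 66.1 Mb and 1 of 3 from 66.4 to 66.5 Mb. Every other 100 kb stretch had mostly minus-strand prey on the left or mostly plus-strand prey on the right. Minus-strand junctions had their median at 65.363 Mb and plus-strand junctions at 65.527 Mb. Counting minus on the left and plus on the right as outward, 219 of 327 NPC APH junctions (67.0%) and 32 of 65 NPC DMSO junctions (49.2%) were outward, without line 2 bait 15. Over all 6 pools it was 68.3% of 426 in NPC under APH and 56.4% of 140 in NPC under DMSO.

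In NPC under DMSO the strands showed no common direction. In line 1 the plus-strand share was 50% on the left and 37.5% on the right with bait 7, 57.1% and 40% with bait 12, and 22.2% and 20% with bait 15. In line 2 it was 28.6% on the left and 50% on the right with bait 7, 33.3% and 25% with bait 12, and 27.7% and 46.4% with bait 15. Left minus right averaged 0.000141 ± 16.4 percentage points (SD, n = 6; exact two-sided sign-flip test, p = 1, adjusted p = 1), and 4 of 6 pools were higher on the left. It was 3.75 ± 15.1 without line 2 bait 15 (SD, n = 5). Apart from that pair, a side of the window held 3 to 14 junctions in these pools, so a difference such as that under APH could not be seen in a single DMSO pool.

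The strand difference under APH minus that under DMSO was -35.2 ± 18.8 percentage points over 6 pairs (SD) and was below 0 in 6 of 6, from -61.1 in line 2 bait 12 to -10.4 in line 2 bait 7. Without line 2 bait 15 it was -38.4 ± 19.2 (SD, n = 5). As it comes from the contrast for which the window was chosen, its p-value is not read. In ESC, with 27 window junctions under APH and 18 under DMSO in all, the plus-strand share was 41.7% on the left and 33.3% on the right under APH, and 58.3% on the left and 83.3% on the right under DMSO.

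**Figure D4:**
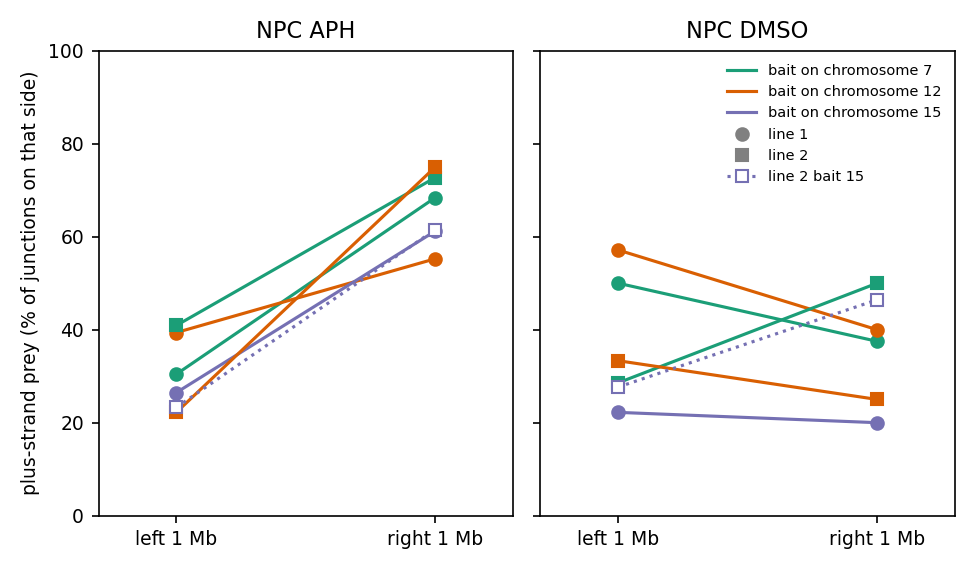
Plus-strand prey as a percent of the junctions in the left and in the right 1 Mb of the window, with 1 line per pool, for NPC under APH (left panel) and NPC under DMSO (right panel). All 6 lines climb under APH, while under DMSO 2 climb and 4 fall.

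At the join, window junctions looked much like those elsewhere. In NPC under APH, 318 of 426 window junctions (74.6%) had at least 1 shared base, 76 (17.8%) had inserted bases and 32 (7.51%) had neither. The commonest overlap was 2 bases, with 108 junctions, then 3 bases, with 79. The longest overlap was 12 bases and the longest insert 24. Per pool, the share with at least 1 shared base ran from 69.0% to 83.3% in the window and from 74.9% to 76.5% among all other junctions off the bait chromosome. The difference, window minus rest, was -0.732 ± 5.08 percentage points (SD, n = 6; exact two-sided sign-flip test, p = 0.688, adjusted p = 1), below 0 in 5 of 6 pools.

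Inserted bases were found in 6.67% to 21.2% of window junctions and in 16.1% to 18.2% of the rest. The difference was -0.397 ± 5.33 percentage points (SD, n = 6; exact two-sided sign-flip test, p = 1, adjusted p = 1), above 0 in 5 of 6 pools. The pool below 0 was line 2 bait 12, the one that rests on 3 experiments, with 6.67% of 30 window junctions against 17.5% of the rest. Without line 2 bait 15 the differences were -0.730 ± 5.68 points for shared bases and -0.625 ± 5.93 points for inserted bases (SD, n = 5).

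**Figure D5:**
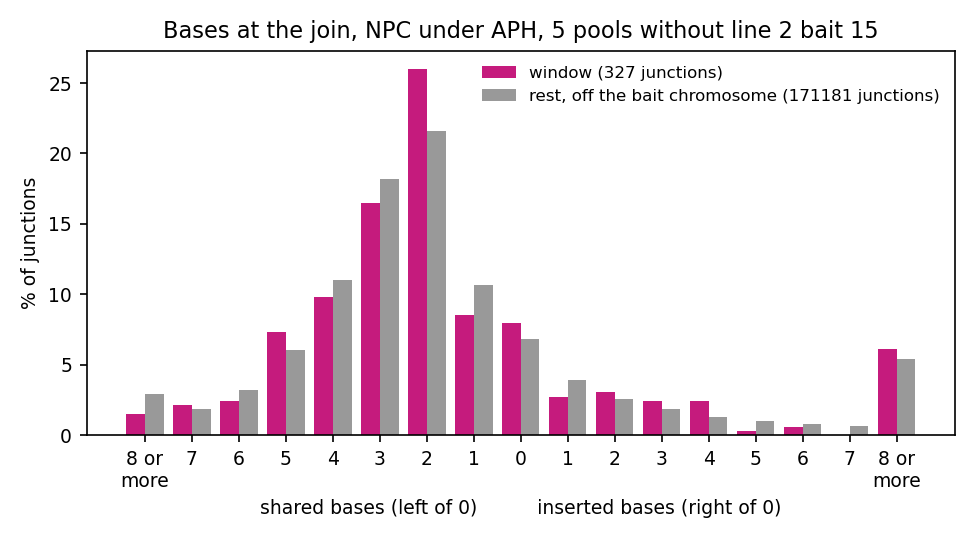
Percent of junctions by the number of shared bases (left of 0) or inserted bases (right of 0), for the window (327 junctions) and the rest off the bait chromosome (171181 junctions), in NPC under APH without line 2 bait 15. Both peak at 2 shared bases, with 26.0% of window junctions and 21.6% of the rest.

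The prey DNA itself was poorer in G and C in 5 of 6 pools. Over the 30 prey bases next to the join, the GC content of window junctions in NPC under APH was 41.3% with bait 7, 44.2% with bait 12 and 43.0% with bait 15 in line 1, against 46.3%, 44.98% and 44.4% in the rest. In line 2 it was 43.1%, 38.9% and 45.7% in the window, against 45.5%, 45.7% and 44.8% in the rest. The difference, window minus rest, was -2.59 ± 2.84 percentage points (SD, n = 6; exact two-sided sign-flip test, p = 0.0938, adjusted p = 0.25 over 8 tests and 0.281 over 6), below 0 in 5 of 6 pools. Without line 2 bait 15 it was -3.29 ± 2.54 (SD, n = 5), below 0 in 5 of 5 with p = 0.0625 by the exact test. All pools drew their window prey from the same stretch of DNA, whose own GC content was not measured. A trait of the junctions therefore cannot be told apart from the base composition of the window.

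The bins whose junction levels followed the window most closely over the 24 pools were sought among 466 bins of 500 kb off the bait chromosomes, by Pearson's r of log2(CPM + 10). The pools share lines, baits and depth, and r over all bins had a median of 0.208, so these values are a description. The bin from 19 Mb on chromosome 5 came first with r = 0.927 (0.979 over the 12 NPC pools, 0.921 without the NPC line 2 bait 15 pools). It was followed by the bins from 61.5 Mb on chromosome 6 (0.845), 68.5 Mb on chromosome 8 (0.791), 30.5 Mb on chromosome 19 (0.782) and 41.5 Mb on chromosome 2 (0.781). In the chromosome 5 bin the share was 0.160% ± 0.0414 in NPC under APH and 0.0383% ± 0.0359 in NPC under DMSO, then 0.0147% ± 0.0128 in ESC under APH and 0.0113% ± 0.00920 in ESC under DMSO (SD, n = 6 each). In the chromosome 6 bin it was 0.108% ± 0.0429 in NPC under APH and 0.0261% ± 0.0226 in NPC under DMSO, and below 0.0327% or equal to it in each ESC pool.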

How the data were processed

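The authors deposited 24 tables of junctions, 1 per pool, whose rows are single reads, so each count is a number of such rows, not normalized by the authors. Reads were aligned with Bowtie2 to mm9, per the submitters' processing notes. The deposited tables name experiments by letters, which matched the labels in 21 tables; the other 3 were used as pools only. Each read name was counted a single time per table, which removed 18609 repeated rows. Pools held 4700 to 88541 junctions beyond 5 Mb of the bait break. The share of these in the window was computed with exact Clopper-Pearson 95% intervals. Counts in 500 kb bins were fitted with edgeR 4.0.16 (TMM scaling, a minimum count of 5, a block per cell type, line and bait, R 4.3.3), after a test on simulated data. Other tests were exact sign-flip tests over line and bait pairs, with Benjamini-Hochberg adjustment over 8. Named bins are the window's own and the 5 with the highest r. The window, lists and tests were chosen with earlier results of these data known. Settings tried are DESeq2 1.42.0, other bins, filters, bait zones, split points and comparison sets, pools or lines left out, and, chosen after seeing the data, junctions in 1 pool only and bait 15 left out.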

Additional observations from a re-analysis of the deposited data

Results flagged for a closer look

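In NPC under APH, the share of junctions with inserted bases in the window minus the rest was -10.9 percentage points in line 2 bait 12. This was far below the other 5 pools, which lay between 0.381 and 3.91. The value of line 2 bait 12 rests on 30 window junctions of 3 experiments. Among 12 groups of 6 values looked at in this way it was the 1 that stood apart, and chance flags about 1 in 20 groups.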

How the results depend on the processing

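The ESC difference in share had no stable sign. APH minus DMSO was -0.00629 points with each position and strand counted a single time, -0.00342 without line 1, -0.000133 over junctions off the bait chromosome and -0.00869 in the inner 1 Mb; with 1 pair left out it ran from -0.0106 to 0.0124. Experiments paired by letter as a replicate block gave 0.0276 points (16 pairs, permutation p = 0.0626, adjusted p = 0.167). Deviations of same-lettered experiments correlated at -0.0180 to 0.0917 over 684 windows of 2 Mb. These experiments held few junctions per window, with 679 beyond 5 Mb in all in ESC line 1 bait 12 DMSO experiment C. Such counts give low correlations in any case, so whether letters pair samples could not be told from them. Without the line and bait block the exact permutation p was 0.959. No window bin was called in ESC under any of 15 other settings, and none could be tested in 250 kb bins. The log2 fold change of the bin from 65 Mb stayed below 0, between -1.49 and -0.23. With all pools this bin held 7 junctions in ESC under APH and 10 in ESC under DMSO. With no filter the bins from 64.5, 65.5 and 66 Mb were above 0, at 1.13, 1.02 and 1.25. The bin from 65.5 Mb was also above 0 without line 2 bait 15 (0.81) and without line 2 (0.93). The window's bins thus had no common sign in ESC. Over all bins, the 20 calls in ESC became 4 with no replicate block, 3 without line 1, 8 without line 2, 12 with DESeq2, 13 with its size factors, no filter or 1 Mb bins, and 7 to 18 with 1 pair left out. The NPC strand difference under APH stayed below 0 in all 13 other settings, between -39.1 and -31.7 with 1 pair left out and -18.7 with the split 250 kb to the left. Under DMSO it was -0.598 with each position counted a single time, -10.6 without line 1, and -3.43 to 4.29 with 1 pair left out. The median position difference was -108 kb without line 1, -37.8 kb without bait 15 and -41.2 kb for means, and -50.1 to 91.7 kb with 1 pair left out. The shared-base difference was 1.41 points without line 1 and 0.635 at 2 or more bases, and -2.57 to 0.461 with 1 pair left out. The inserted-base difference was 1.28 points without line 2 and 0.672 at 2 or more bases, and -1.26 to 1.70 with 1 pair left out. The NPC APH minus ESC APH share was 0.105 points, and 0.0800 over junctions in 1 pool only; NPC APH minus NPC DMSO was 0.0824 points and then 0.0576. The causes of these shifts were not tested. Single ESC and NPC DMSO pools held as few as 1 and 7 window junctions. Leaving out line 2 bait 15 took the NPC DMSO mean share to 0.0637%, against 0.0744% with it.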
